A study of Mus musculus with 6 samples.

Results

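The 35 genes described here are marker genes of the endothelium, the cell layer that lines blood vessels. They were chosen by name as genes known from endothelial cells, with earlier results of these data known, and all 35 were found by symbol among the 21959 genes of the deposited table. Bulk RNA-seq was made from full-thickness dorsal skin of male C57BL/6 mice, shaved at 7 weeks of age with the hair follicles in telogen, the resting phase. The skin received vehicle (30% dipropylene glycol in water) or 3% rebamipide every day for 7 days, with 3 mice per group and 1 poly-A library per mouse. Rebamipide is a quinolinone drug used to protect the gastric mucosa. The question put to these genes was whether they rose alike under rebamipide, as an equal gain of all vessels would give.

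Endothelial cells hold to each other through VE-cadherin and tight junction proteins, sense VEGF and angiopoietins through receptor tyrosine kinases, and owe their identity to ETS and SOX family transcription factors. Capillaries, arteries, veins and lymphatic vessels use different sets of these genes. Leukocyte entry takes place mainly in postcapillary venules, whose endothelium stores P-selectin and von Willebrand factor and makes E-selectin when inflamed. In skin the vessels supply the dermis, the hair follicles and the dermal fat.

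The libraries differed in their content of tissue markers. Depth ranged from 38676018 to 39915276 counted reads with vehicle and from 32709801 to 34706852 with rebamipide, and mitochondrial genes took 2.59% to 5.36% and 13.28% to 21.96% of them. Values are CPM, each gene's counts as a share of its library, scaled by edgeR's TMM factors unless named otherwise. The 4 keratinocyte markers, which define epidermis, summed to 1973 to 6247 CPM with vehicle, to 1764 and 1063 CPM in rebamipide replicates 1 and 2, and to 2.17 CPM in rebamipide replicate 3, where Krt14 had 0 counts and Krt5 stood at 0.153 CPM. The library labelled rebamipide replicate 3 thus held next to none of the defining markers of epidermis. Ucp1, the uncoupling protein of brown fat, had 0 counts in all 3 vehicle libraries and stood at 2667, 8587 and 5743 CPM in the rebamipide libraries. The summed level of the 8 brown adipocyte markers was 220.4 to 402.9 CPM with vehicle and 4858 to 12570 CPM with rebamipide. The list was not uniform, since Elovl3 stood at 175.9, 128.5 and 238.3 CPM with vehicle and at 82.3, 83.1 and 33.3 CPM with rebamipide, and Zic1 had a log2 fold change of 0.09 ± 0.42. The part of this tissue content in the endothelial values was not tested.

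For members on both sides of the pattern reported below, the bases just before the gene start are shown, since these genes of 1 cell type differed in their change relative to a shared endothelial reference. Promoter sequences were matched by symbol for 19 of the 35 members in RefSeq (build GRCm38.p6). The 150 bases before the start are printed from 5′ to 3′ on the gene's strand, with any match to the motifs searched in capitals.
Kdr, chr5:75978456-75978605, minus strand: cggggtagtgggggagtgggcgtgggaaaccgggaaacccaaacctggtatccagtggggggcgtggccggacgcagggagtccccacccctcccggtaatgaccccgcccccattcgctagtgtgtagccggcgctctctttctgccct
Rgcc, chr14:79301636-79301785, minus strand: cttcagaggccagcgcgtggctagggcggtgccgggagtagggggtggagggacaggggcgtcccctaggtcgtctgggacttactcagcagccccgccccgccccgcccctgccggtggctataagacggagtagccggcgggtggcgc
Calcrl, chr2:84425267-84425416, minus strand: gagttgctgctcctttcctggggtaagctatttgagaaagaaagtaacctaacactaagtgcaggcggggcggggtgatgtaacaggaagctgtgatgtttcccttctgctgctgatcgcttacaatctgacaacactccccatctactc
Sele, chr1:164048084-164048233, plus strand: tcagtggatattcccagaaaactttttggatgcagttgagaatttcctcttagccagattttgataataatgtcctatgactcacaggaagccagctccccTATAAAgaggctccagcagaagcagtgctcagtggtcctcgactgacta
Selp, chr1:164115114-164115263, plus strand: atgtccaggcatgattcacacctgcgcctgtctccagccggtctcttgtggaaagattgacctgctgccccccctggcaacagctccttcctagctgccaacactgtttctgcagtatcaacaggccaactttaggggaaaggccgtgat
The share of G and C bases in such windows ran from 40.7% to 72.7% over the 19 members, with a median of 56.7%, against a median of 54.0% over all 32851 promoters. The only match in the 5 windows printed was TATAAA, the letters of a TATA box, in Sele. Among the other matched members, Flt1, Tek, Emcn and Myct1 also held a match in their 150 bases. Over the 300 bases from 250 before to 50 after the start, searched on both strands, TATAAA was held by 3 of the 19 members and by 13.6% of 32851 promoters. The ETS motif CGGAAG was found in 1 of 19 members, Tie1, against 16.9% of promoters, the SOX motif AACAAT in 3, Calcrl, Emcn and Tek, against 10.7%, and the GATA motif AGATAA in 3, Myct1, Tal1 and Tek, against 11.2%. TATAAA was added after the expression values were seen, as was the choice of these 5 promoters.

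Of the 35 members, 14 rose and 0 fell in rebamipide-treated skin at the 0.05 threshold for the adjusted p-value (edgeR's quasi-likelihood test over 14875 genes). Of all genes tested, 14.1% were called higher and 6.51% lower. The 14 were Cdh5, Robo4, Icam2, Emcn, Cd93, Esam, Kdr, Flt1, Tie1, Egfl7, Eng, Rgcc, Myct1 and Sox18. The groups did not overlap, with all 3 rebamipide libraries above all 3 vehicle libraries, for 27 of 35 members, against 24.5% of all genes, and they lay fully below for 0 members, against 24.0% of all genes. An unadjusted p-value under 0.05 was reached by 27 members in the higher and 0 in the lower direction, against 20.9% and 18.8% of all genes. DESeq2 called 25 members higher and 0 lower, against 18.3% and 17.0% of all genes, and limma-voom called 18 and 0, against 14.4% and 6.94%. For 5 members the edgeR adjusted p-value lay from 0.05 to 0.06. The median log2 fold change was 1.36 over the members and -0.175 over all genes tested. In bulk skin, more endothelial cells, more endothelial RNA per cell and a changed share of other tissues in the sample cannot be told apart. The count of members called moved with single libraries: it was 8 higher without vehicle replicate 1, 0 without vehicle replicate 2, 23 without vehicle replicate 3, 17 without rebamipide replicate 1, 0 without rebamipide replicate 2 and 8 without rebamipide replicate 3. The shares of all genes called higher in those fits were, in the same order, 10% (1507 of 15055 genes), 0.0%, 11.4%, 18.3%, 0.00652% (1 gene) and 6.6%, and the shares called lower 2.52%, 0.0%, 5.51%, 12.8%, 0.0% and 2.49%. In the fits with 0 members called, 17 members without vehicle replicate 2 and 22 without rebamipide replicate 2 were higher at an unadjusted p-value under 0.05, against 15.6% of all genes in each fit, and 0 were lower, against 11.9% and 10.9%. The members' median log2 fold changes there were 1.28 and 1.35. With scaling by total counts alone the median over all genes tested moved to -0.777 and that of the members to 0.75. On that scale 29 members stayed above 0, and 10 were called higher, against 8.45% of all genes in that fit.

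**Figure D1:**
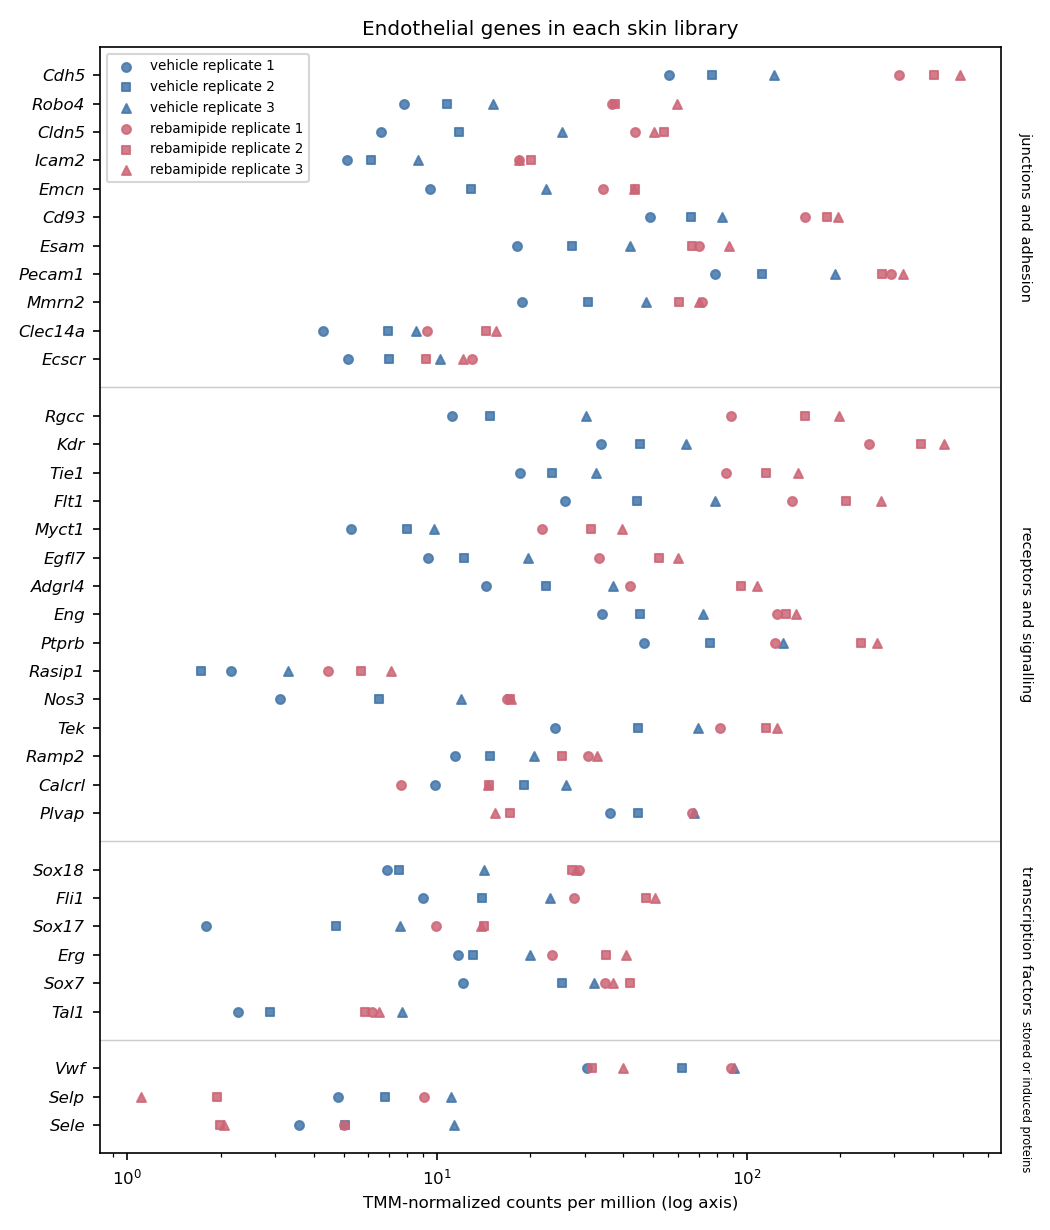
Level of each of the 35 endothelial genes in each library, on a log axis of TMM-normalized CPM, grouped by role. Blue marks are the 3 vehicle libraries and red marks the 3 rebamipide libraries. For 27 genes the red marks all lie to the right of the blue marks, and for the other 8, Vwf, Selp, Sele, Plvap, Calcrl, Ecscr, Ptprb and Tal1, they overlap.

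Of the 11 junction and adhesion genes, edgeR called 6 higher, DESeq2 9 and limma-voom 8, and their median log2 fold change was 1.43. Of all genes, edgeR called 14.1% higher, DESeq2 18.3% and limma-voom 14.4%. Cdh5, which encodes VE-cadherin of the adherens junction, stood at 56.3, 77.5 and 122.7 CPM with vehicle and at 309.7, 401.3 and 487.6 CPM with rebamipide. Every rebamipide library was over the highest vehicle library, and the rise was 4.67-fold (log2 2.22 ± 0.36 SE, edgeR adjusted p = 0.0139). Robo4, an endothelial receptor of the roundabout family that steadies vessels, went from 7.81, 10.8 and 15.2 CPM to 36.8, 37.7 and 59.5 CPM (log2 1.99 ± 0.34, adjusted p = 0.0156 by edgeR). The C-type lectin domain protein Cd93 went from 48.8, 66.1 and 83.0 CPM to 154.7, 181.5 and 196.6 CPM (log2 1.43 ± 0.25, adjusted p = 0.0163 by edgeR). Icam2, an adhesion ligand for leukocyte integrins, rose by 1.51 ± 0.28 on the log2 scale, the sialomucin gene Emcn by 1.43 ± 0.36 and Esam, of the tight junction, by 1.36 ± 0.33.

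The other 5 junction and adhesion genes did not pass by edgeR. Pecam1, the adhesion molecule used most often to stain vessels, stood at 79.0, 111.9 and 192.3 CPM with vehicle and at 293.1, 274.1 and 318.7 CPM with rebamipide. Its groups did not overlap, but the vehicle libraries spread widely (log2 1.21 ± 0.35, edgeR adjusted p = 0.0571). Cldn5, the claudin of the endothelial tight junction, had the largest fitted change of the 5, 1.76 ± 0.49. Mmrn2, a matrix ligand of Clec14a and Cd93, had a log2 change of 1.06 ± 0.35, Clec14a one of 0.99 ± 0.36 and the surface protein gene Ecscr one of 0.61 ± 0.34. Ecscr was the only member of the group whose libraries overlapped between the groups.

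The 15 receptor and signalling genes held both the largest rises and a pair of genes with no rise. By edgeR, 7 were called higher and 0 lower (unadjusted 13 and 0, DESeq2 12 and 0, limma-voom 7 and 0), with a median log2 fold change of 1.41. Of all genes, 14.1% were higher by edgeR, 20.9% unadjusted, 18.3% by DESeq2 and 14.4% by limma-voom. Kdr, the main signalling receptor for VEGF, lies on chromosome 5 at 76093487 to 76139118 in the deposited positions (build GRCm39 in the submitters' notes). Its values were 33.9, 45.4 and 63.9 CPM with vehicle and 249.1, 365.1 and 433.4 CPM with rebamipide, and the lowest rebamipide library was far above the highest vehicle library. The rise was 7.32-fold (log2 2.87 ± 0.35, edgeR adjusted p = 0.00979). Rgcc, a regulator of cell cycle kinases that is abundant in endothelium, lies on chromosome 14 at 79526196 to 79539085. It had 11.2, 14.9 and 30.4 CPM with vehicle and 89.0, 154.8 and 199.2 CPM with rebamipide, which is a 7.85-fold rise (log2 2.97 ± 0.50, edgeR adjusted p = 0.0145).

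Flt1, the VEGF receptor that binds its ligand tightly and signals weakly, went from 26.0, 44.3 and 79.2 CPM to 140.3, 208.8 and 271.7 CPM (log2 2.05 ± 0.47, edgeR adjusted p = 0.0316). Tie1, the orphan partner of the angiopoietin receptor, went from 18.6, 23.5 and 32.7 CPM to 85.8, 115.4 and 146.9 CPM (log2 2.22 ± 0.31, edgeR adjusted p = 0.0105). Neither gene overlapped between the groups. The angiopoietin receptor itself, Tek, had 24.02, 44.6 and 69.7 CPM with vehicle and 81.9, 115.2 and 125.2 CPM with rebamipide, and its change of 1.22 ± 0.41 did not pass (edgeR adjusted p = 0.0789). Myct1, which encodes an endothelial membrane protein, rose by 2.01 ± 0.35 on the log2 scale. The secreted factor gene Egfl7 rose by 1.83 ± 0.37, and Eng, a coreceptor for BMP ligands, by 1.41 ± 0.30.

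DESeq2 called 12 of the 15 receptor and signalling genes higher. Besides Tek, 5 genes of the group had positive log2 changes that did not pass by edgeR. They were 1.73 ± 0.49 for the adhesion G protein-coupled receptor Adgrl4, 1.29 ± 0.46 for Ptprb, the phosphatase that acts on Tek and VE-cadherin, 1.26 ± 0.38 for Rasip1, which takes part in lumen formation, 1.25 ± 0.49 for Nos3, the endothelial nitric oxide synthase, and 0.92 ± 0.28 for Ramp2. Ramp2 and Calcrl encode the parts of 1 receptor, that for adrenomedullin, and had log2 changes of opposite sign, neither of which passed by edgeR. Ramp2 stood at 11.5, 14.8 and 20.6 CPM with vehicle and at 30.6, 25.4 and 32.8 CPM with rebamipide, with no overlap. Calcrl stood at 9.87, 19.1 and 26.0 CPM with vehicle and at 7.64, 14.7 and 14.6 CPM with rebamipide, so that its groups overlapped (log2 -0.57 ± 0.44, edgeR adjusted p = 0.36). Plvap, the protein of the diaphragms of fenestrae and caveolae, stood at 36.1, 44.4 and 67.6 CPM with vehicle and at 66.6, 17.2 and 15.5 CPM with rebamipide (log2 -0.58 ± 0.62, edgeR adjusted p = 0.511). Rebamipide replicate 1 lay within the vehicle range and replicates 2 and 3 below it.

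Of the 6 transcription factor genes, edgeR called Sox18 alone, while DESeq2 called 4 higher and limma-voom 3, and 4 had an unadjusted p-value under 0.05. The shares of all genes called higher were 14.1% by edgeR, 18.3% by DESeq2, 14.4% by limma-voom and 20.9% unadjusted. The median log2 fold change was 1.29. Sox18, a SOX factor of developing vessels, had 6.89, 7.55 and 14.2 CPM with vehicle and 28.7, 27.3 and 28.2 CPM with rebamipide (log2 1.56 ± 0.33, edgeR adjusted p = 0.0264). The ETS factor gene Erg had 11.7, 13.1 and 19.9 CPM with vehicle and 23.5, 35.02 and 40.7 CPM with rebamipide (log2 1.15 ± 0.32, edgeR adjusted p = 0.0507), and its relative Fli1 changed by 1.45 ± 0.42. The SOX genes Sox17 and Sox7 had log2 changes of 1.43 ± 0.54 and 0.71 ± 0.37. Those 4 genes did not overlap between the groups. Tal1, a factor shared with blood cell precursors, overlapped, with a change of 0.52 ± 0.51 that fell to -0.08 with scaling by total counts alone.

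The 3 genes of stored or induced venular proteins had no call by edgeR, DESeq2 or limma-voom and 0 had an unadjusted p-value under 0.05, and each had a log2 fold change below 0. Vwf, von Willebrand factor, stood at 30.5, 61.9 and 90.9 CPM with vehicle and at 88.8, 31.6 and 39.8 CPM with rebamipide (log2 -0.19 ± 0.53, edgeR adjusted p = 0.806). Selp, which encodes P-selectin, stood at 4.81, 6.80 and 11.1 CPM with vehicle and at 9.05, 1.95 and 1.11 CPM with rebamipide (log2 -0.90 ± 0.82, edgeR adjusted p = 0.436). Sele, which encodes E-selectin, stood at 3.58, 5.03 and 11.4 CPM with vehicle and at 5.00, 1.99 and 2.06 CPM with rebamipide (log2 -1.14 ± 0.61, edgeR adjusted p = 0.206). For Selp and Sele, rebamipide replicate 1 lay among the vehicle libraries and replicates 2 and 3 below all of them, as for Plvap. The selectin genes are neighbours on chromosome 1, 58 kb apart in the deposited positions. Without rebamipide replicate 1, 2 members were called lower, Plvap with a log2 change of -1.59 and Selp with -2.30, beside 17 called higher, while in that fit 12.8% of all genes were called lower and 18.3% higher. The smallest adjusted p-values of any setting, 0.000186 for Plvap and 0.000217 for Selp, came from DESeq2 without that same library. In the settings that kept it, the adjusted p-values ran from 0.113 to 0.846 for Plvap and from 0.109 to 0.753 for Selp, and 0 members were called lower.

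**Figure D2:**
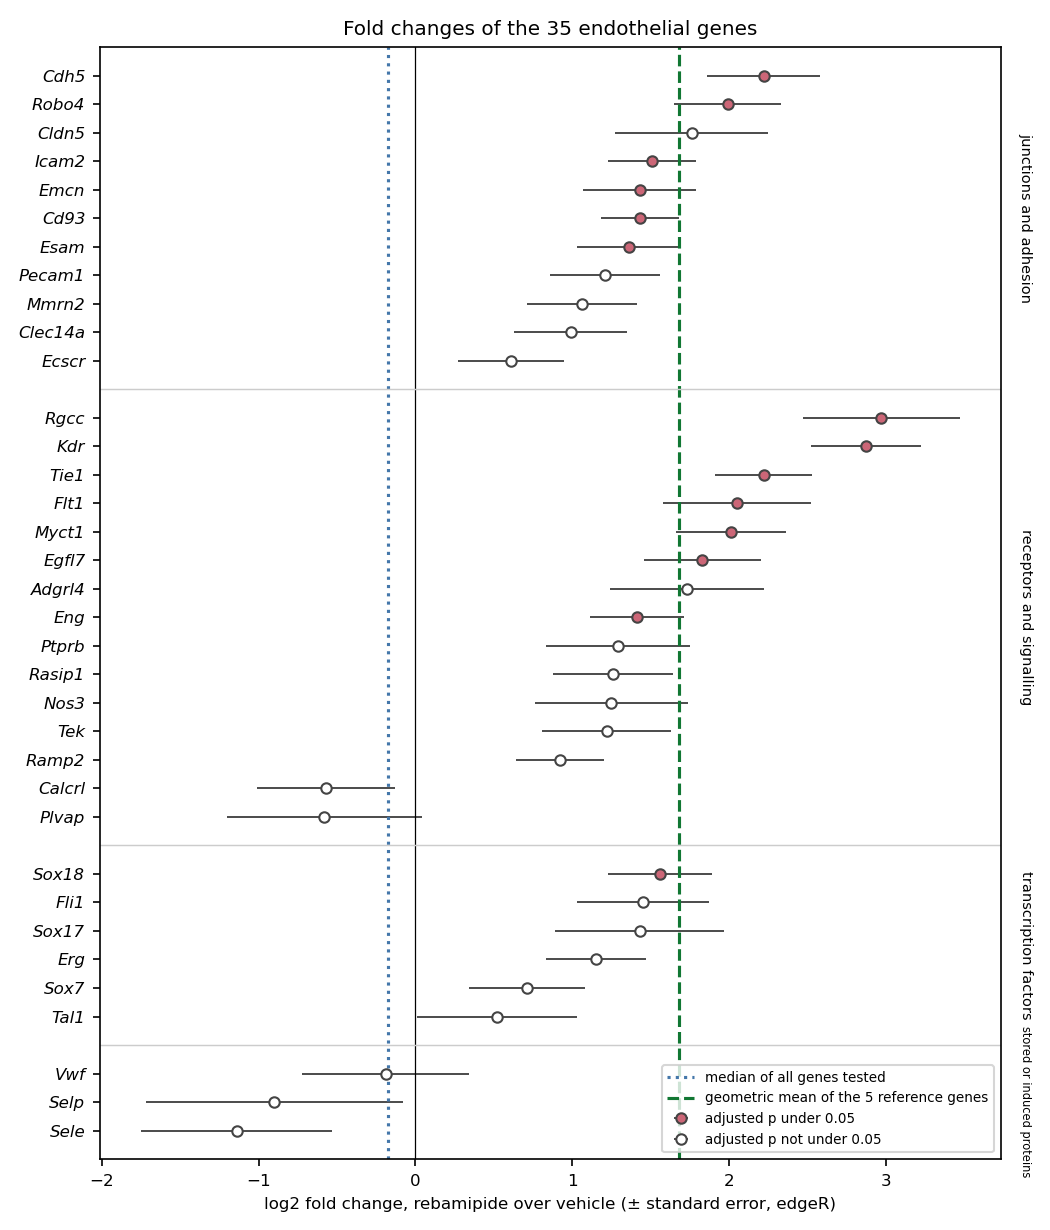
Log2 fold change of each member, rebamipide over vehicle, with its standard error from edgeR. Filled points passed an adjusted p-value of 0.05, the dotted line is the median of all genes tested (-0.175) and the dashed line the rise of the geometric mean of 5 reference genes (1.68). Points run from -1.14 for Sele to 2.97 for Rgcc.

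To ask whether the members rose alike, each was set against a pan-endothelial reference, the geometric mean of the counts of Pecam1, Cdh5, Tie1, Esam and Erg. The reference stood at 28.1, 37.4 and 57.8 CPM with vehicle and at 105, 124 and 152 CPM with rebamipide, a 3.2-fold rise of the geometric mean. The 5 genes did not rise equally themselves, with log2 fold changes from 1.15 for Erg to 2.22 for Cdh5 and Tie1. With the libraries scaled to this reference, 2 of the other 30 members were called higher, Kdr and Rgcc, and 5 were called lower, Vwf, Plvap, Calcrl, Sele and Selp (edgeR, adjusted p-value under 0.05). The other 23 were not called, with differences from the reference that ran from Ecscr to Flt1, -0.99 to 0.46 on the log2 scale. On this scale 2.55% of all genes were called higher and 69.4% lower, with a median of -1.87, so a fall relative to the reference was common among all genes and a rise was not. With so many genes called, the cutoff was looser: the largest unadjusted edgeR p-value that passed was 0.036, against 0.0103 with TMM. Between these limits lay the unadjusted edgeR p-values of Vwf (0.0184), Plvap (0.0212) and Selp (0.0322) on this scale.

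Per 100 reads of the reference, Kdr had 120.4, 121.5 and 110.5 reads in the vehicle libraries and 236.8, 293.8 and 284.9 in the rebamipide libraries. The ratio was nearly constant across vehicle mice whose reference level differed widely, and was 2.31-fold higher with rebamipide (log2 1.21 ± 0.32, edgeR adjusted p = 0.0155). Rgcc had 39.9, 39.8 and 52.6 reads per 100 with vehicle and 84.6, 124.6 and 131.0 with rebamipide (log2 1.36 ± 0.36, edgeR adjusted p = 0.0153). Both genes were separate between the groups, as were 4.08% of all genes in that direction.

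Plvap had 128.5, 118.9 and 116.9 reads per 100 reference reads with vehicle and 63.3, 13.8 and 10.2 with rebamipide (log2 -2.06 ± 0.71, edgeR adjusted p = 0.0331). Vwf had 108.6, 165.7 and 157.2 reads per 100 with vehicle and 84.4, 25.5 and 26.2 with rebamipide (log2 -1.67 ± 0.56, edgeR adjusted p = 0.0299). In both, rebamipide replicate 1 was nearest to the vehicle libraries. Calcrl did not share this order, with 35.1, 51.1 and 45.0 reads per 100 with vehicle and 7.26, 11.8 and 9.60 with rebamipide (log2 -2.19 ± 0.40, edgeR adjusted p = 0.0116).

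Selp had 17.1, 18.2 and 19.2 reads per 100 with vehicle and 8.60, 1.57 and 0.727 with rebamipide (log2 -2.32 ± 0.89, edgeR adjusted p = 0.0458). Sele had 12.8, 13.5 and 19.7 with vehicle and 4.76, 1.599 and 1.35 with rebamipide (log2 -2.57 ± 0.63, edgeR adjusted p = 0.0135). All 5 genes called lower were separate between the groups in every library, which 76.8% of all genes also were. The counts of calls against the reference moved with single libraries, while the 7 genes named kept the sign of their difference. Those higher and lower by edgeR were 2 and 4 without vehicle replicate 1, 0 and 2 without vehicle replicate 2, 2 and 2 without vehicle replicate 3, 2 and 6 without rebamipide replicate 1, 0 and 0 without rebamipide replicate 2, and 0 and 2 without rebamipide replicate 3. In the same order, 2.18%, 1.34%, 2.24%, 2.47%, 0.0% and 1.61% of all genes were called higher in those fits, and 50.7%, 44.1%, 71.5%, 65.7%, 0.0% and 53.2% lower. Over all 25 alternatives the log2 difference from the reference ran from 1.15 to 1.66 for Kdr and from 1.22 to 1.83 for Rgcc, from -2.37 to -1.73 for Calcrl and from -3.38 to -2.18 for Sele. It ran from -3.36 to -1.65 for Plvap, from -2.48 to -1.27 for Vwf and from -4.10 to -1.84 for Selp. At an unadjusted p-value under 0.05, 2 and 3 were higher and lower without vehicle replicate 2, 2 and 2 without rebamipide replicate 2, and 2 and 5 without rebamipide replicate 3. With all 35 members as the reference, 2 were higher, Kdr and Rgcc, and 2 lower, Calcrl and Sele. For the unadjusted counts and for this reference, the shares of all genes were not counted, so these numbers cannot be read against them.

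**Figure D3:**
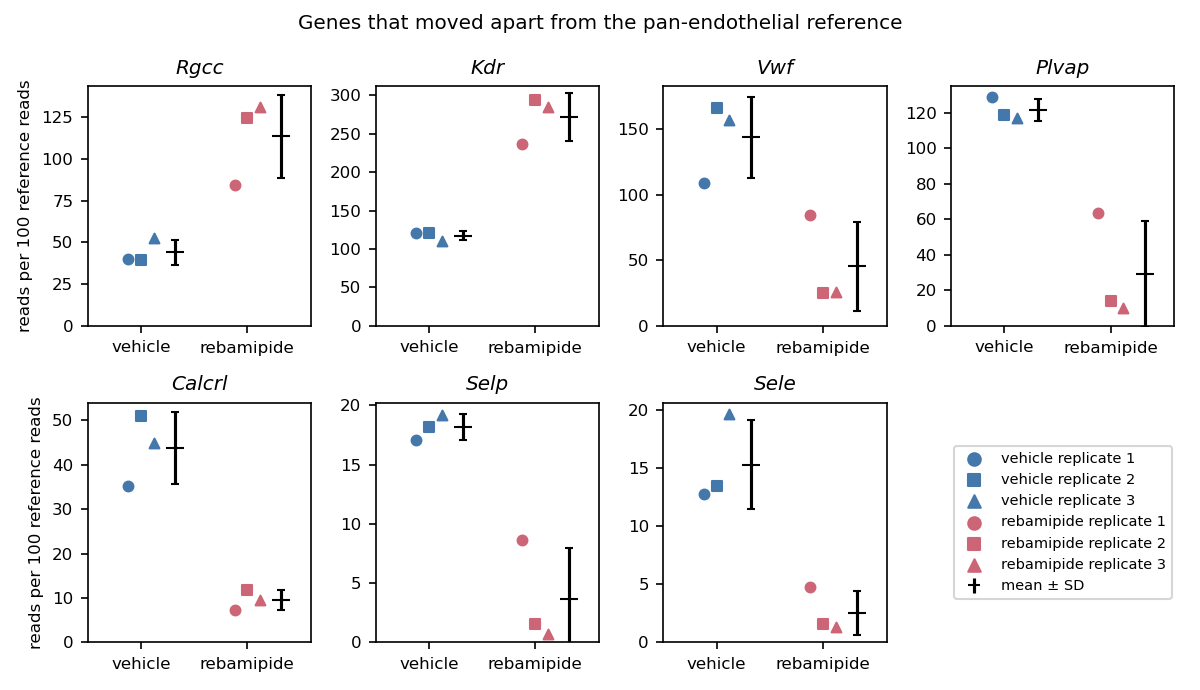
Reads of 7 genes per 100 reads of the reference (geometric mean of Pecam1, Cdh5, Tie1, Esam and Erg) in each library, each panel on its own linear axis from 0, with mean ± SD (n = 3) to the right of each group and bars cut at 0. Kdr and Rgcc lie higher with rebamipide, and Vwf, Plvap, Calcrl, Selp and Sele lie lower, with rebamipide replicate 1 nearest to vehicle for Vwf, Plvap, Selp and Sele.

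The spread within the groups was itself ordered. Among the vehicle libraries, 34 of 35 members were lowest in replicate 1 and 35 of 35 were highest in replicate 3, and the median ratio of the highest to the lowest library was 2.32, against 1.64 over all genes. The exception was Rasip1, lowest in replicate 2. The share of all genes with this order was not counted, and the order was not particular to the members. The summed capillary, venous, lymphatic, leukocyte, keratinocyte, fibroblast and muscle lists also rose from vehicle replicate 1 to 3. Fibroblast markers, for example, summed to 8196, 9070 and 11690 CPM. The arterial, tip cell, Notch and BMP receptor and proliferation lists did not have this order. The summed level of the 35 members was 628.3, 934.0 and 1471 CPM with vehicle and 2407, 2958 and 3458 CPM with rebamipide. Among the rebamipide libraries the median ratio was 1.6, against 1.68 over all genes, and it was largest for Selp, 8.18. There 23 members were lowest in replicate 1, while 7 were highest there, Vwf, Plvap, Sele, Selp, Sox18, Mmrn2 and Ecscr. The 5 fibroblast markers summed to 9253 CPM in rebamipide replicate 1, within the vehicle range of 8196 to 11690 CPM, and to 1945 and 1052 CPM in replicates 2 and 3. The 7 lymphatic markers summed to 124.0, 59.1 and 40.6 CPM in the same libraries. Whether tissue content sets the order of the libraries for these members was not tested.

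Levels were compared between genes per length, as FPKM computed by the authors. With vehicle, Plvap was the most abundant member, 30.7 ± 9.35 FPKM (SD, n = 3), followed by Pecam1 with 25.3 ± 10.9, Rgcc with 25.2 ± 13.0 and Cdh5 with 25.1 ± 9.32, which lay within 1 SD of each other. With rebamipide, Rgcc led with 126.6 ± 37.0 FPKM, then came Cdh5 with 75.8 ± 10.4, and Pecam1 with 38.4 ± 5.44 and Kdr with 30.7 ± 5.33, which were not separated by their SD. Kdr went from rank 14 to rank 4 of the 35 members and Plvap from rank 1 to rank 11, at 14.5 ± 14.4 FPKM. Sele and Selp were the least abundant with rebamipide, at 0.871 ± 0.614 and 0.808 ± 0.953 FPKM. FPKM divide by all counts of a library, so the larger mitochondrial share of the rebamipide libraries lowers every other gene in them.

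Marker lists of vessel types were read beside the members, although several of their genes are also used by other skin cells. Of 10 capillary markers, 8 were called higher and 0 lower, against 14.1% and 6.51% of all genes. Their median log2 fold change of 2.38 lay above that of the members. Gpihbp1, which carries lipoprotein lipase to the capillary surface, stood at 10.97, 12.3 and 19.7 CPM with vehicle and at 77.3, 132.5 and 164.5 CPM with rebamipide (log2 3.12 ± 0.39, edgeR adjusted p = 0.00993). Cd300lg, a receptor of capillary endothelium, rose by 2.86 ± 0.37. Cd36, the fatty acid transporter of capillaries and also of adipocytes, rose by 2.36 ± 0.60, and the water channel gene Aqp1 by 1.55 ± 0.42. Of 28 alternatives, the call was lost in 9 for Cd36 and in 16 for Aqp1. Against the pan-endothelial reference, 3 capillary markers were called higher, Gpihbp1 with 1.44, Cd300lg with 1.20 and Car4, a carbonic anhydrase named after its values were seen, with 2.42 on the log2 scale.

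Of 10 arterial markers, 2 were called higher and 1 lower, with a median log2 fold change of 0.22. Sema3g rose by 1.30 ± 0.29 and the Notch ligand gene Dll4, named after its values were seen, by 1.64 ± 0.38. Efnb2, the ephrin of arteries that epithelium also makes, fell by 1.76 ± 0.29, and Jag1 changed by -1.33 ± 0.57, which did not pass by edgeR. DESeq2 called 2 of the arterial list higher and 2 lower. Of 8 venous markers, 3 were called higher and 1 lower, with a median of 0.70. Ephb4, the venous receptor for ephrins, rose by 0.81 ± 0.16, a call lost in 9 of 28 alternatives, among them scaling by total counts alone, where the change was 0.20. Aqp7, a glycerol channel known best from adipocytes, rose by 4.74 ± 0.50. Ackr1, the chemokine-binding receptor of venules, named after its values were seen, had 4.73, 11.0 and 20.2 CPM with vehicle and 12.2, 2.30 and 1.91 CPM with rebamipide, the order of libraries also seen for Selp (log2 -1.13 ± 0.88, edgeR adjusted p = 0.367).

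Of all genes, edgeR called 14.1% higher and 6.51% lower, DESeq2 18.3% and 17.0% and limma-voom 14.4% and 6.94%. Of 8 genes of sprouting tip cells, 3 were called higher and 0 lower by edgeR. The basement membrane collagen genes Col4a1 and Col4a2, which many cell types use, rose by 1.00 ± 0.23 and 1.21 ± 0.21. With scaling by total counts alone these changes were 0.38 and 0.59 and neither passed. The third was Apln, the ligand of the apelin receptor, named after its values were seen, with 1.16 ± 0.27, which on that scale was 0.54 and did not pass. The median of the list was -0.08, near the median of all genes. Of 7 lymphatic markers, edgeR called 0 in either direction, 2 were lower at an unadjusted p-value under 0.05, DESeq2 called 2 lower and limma-voom 0, and the median was -1.36. Mmrn1 stood at 7.97, 15.1 and 31.9 CPM with vehicle and at 4.08, 3.58 and 0.877 CPM with rebamipide (log2 -2.68 ± 0.75, edgeR adjusted p = 0.0523), and the chemokine gene Ccl21a changed by -1.36 ± 0.88, Reln by -1.34 ± 0.49 and Pdpn by -1.49 ± 0.80. Of 10 genes of pericytes and smooth muscle, the cells around the vessels, edgeR and limma-voom called 1 higher, by edgeR the potassium channel gene Kcnj8 (log2 2.03 ± 0.44), while DESeq2 called 4 higher and 5 were higher at an unadjusted p-value under 0.05. The median was 0.76. Rgs5, Cspg4 and Acta2 had log2 changes of 1.96 ± 0.65, 0.88 ± 0.29 and 0.27 ± 0.26 that did not pass by edgeR.

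**Figure D4:**
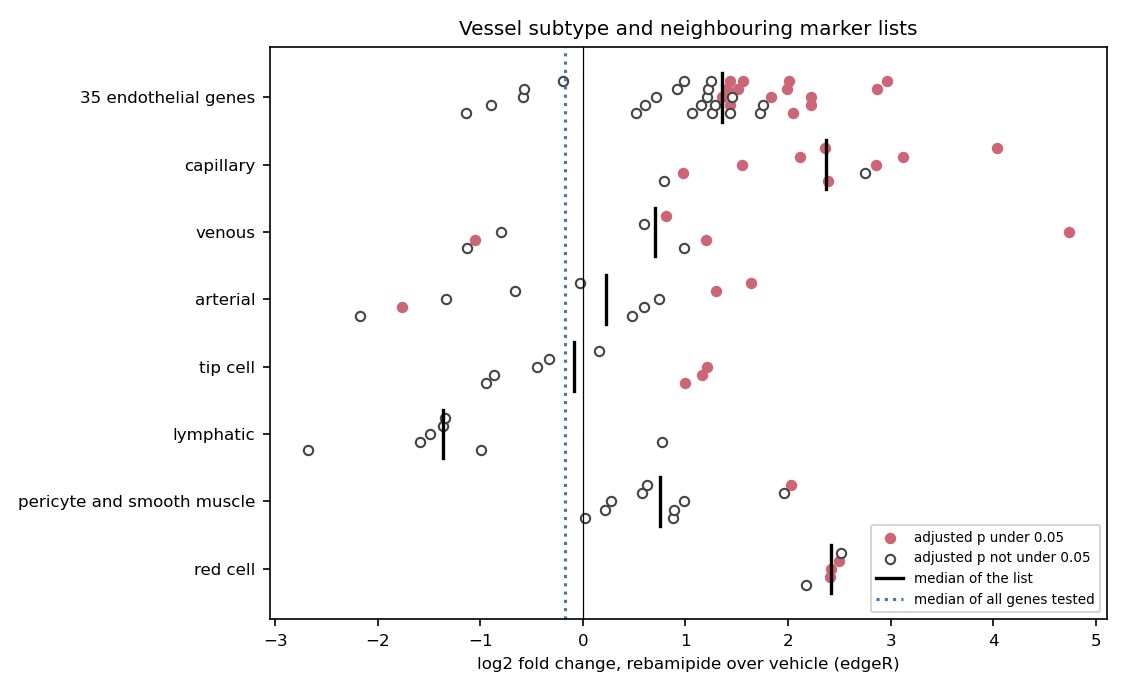
Log2 fold changes, rebamipide over vehicle, of the genes of vessel subtype lists, perivascular cells and red cells beside the 35 members. Each point is 1 gene, filled where its adjusted p-value was under 0.05, and the black bar is the median of the list. The medians of the capillary and red cell markers (2.38 and 2.42) lie to the right of the members' median of 1.36 and 6 of the 7 lymphatic markers lie left of 0.

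The ligands of these receptors were read in the same skin. Of 7 vascular ligand genes, 2 were called higher and 0 lower by edgeR, against 14.1% and 6.51% of all genes. Vegfa, the ligand of Kdr and Flt1, stood at 37.3, 57.8 and 121.5 CPM with vehicle and at 157.4, 363.1 and 482.2 CPM with rebamipide (log2 2.21 ± 0.59, edgeR adjusted p = 0.0468). Vegfb, a ligand of Flt1, stood at 10.6, 17.9 and 24.7 CPM with vehicle and at 74.2, 99.2 and 130.1 CPM with rebamipide (log2 2.51 ± 0.38, edgeR adjusted p = 0.0122). Both were without overlap between the groups. The call of Vegfa was lost in 11 of 28 alternatives and that of Vegfb in 4. Of 5 Notch and BMP pathway genes of vessels, the endothelial receptor gene Notch4 rose by 2.1 ± 0.36 and Rbpj, the DNA-binding partner of all Notch receptors, fell by 0.92 ± 0.25. The call of Rbpj (edgeR adjusted p = 0.0487) was lost in 15 of 28 alternatives and that of Notch4 in 4. Notch1 and Bmpr2, which other skin cells use too, had log2 changes of -1.22 ± 0.56 and -1.02 ± 0.28. Neither passed by edgeR (adjusted p = 0.158 and 0.051). DESeq2, limma-voom and an unadjusted edgeR p-value under 0.05 each gave 1 of the 5 higher and 2 lower. Of the 264 genes that the deposited table annotates to angiogenesis, 19 are members, and of the 223 others tested 29 were higher (13.0%) and 20 lower, with a median log2 fold change of -0.27. That group was thus called higher about as often as all genes.

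Blood cell markers were read beside the vessels. Of 5 red cell genes, edgeR called 3 higher, DESeq2 and limma-voom 5 each, and none of these tools called any lower. Unadjusted, 4 were higher by edgeR. The shares of all genes called higher were 14.1% by edgeR, 18.3% by DESeq2, 14.4% by limma-voom and 20.9% unadjusted. The median log2 fold change was 2.42, and the globin genes Hba-a1 and Hbb-bs had 15.3 to 69.3 and 22.4 to 107.1 CPM with vehicle and 115.7 to 266.0 and 190.1 to 449.4 CPM with rebamipide. Their near copies Hba-a2 and Hbb-bt can share reads with them, so the split between copies is uncertain. The red cell list summed to 42.4, 103.1 and 199.7 CPM with vehicle and to 345.3, 761.2 and 808.2 CPM with rebamipide. Like the members and several other lists, it was lowest in vehicle replicate 1 and highest in vehicle replicate 3 among the vehicle libraries. Of 6 leukocyte genes, edgeR and limma-voom called 0, while 1 was lower by DESeq2 and at an unadjusted p-value under 0.05, and their sum was 313.6 to 685.8 CPM with vehicle and 179.8 to 672.3 CPM with rebamipide. Of 5 platelet genes, 3 could be tested, and 0 were called by the 3 tools or had an unadjusted p-value under 0.05. Gp1bb had 0 counts in every library, and Pf4, Itga2b and Ppbp had log2 changes of -0.60 ± 0.61, -0.72 ± 0.52 and 0.64 ± 1.14. Platelets also hold P-selectin and von Willebrand factor.

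The shares of all genes called higher and lower were 14.1% and 6.51% by edgeR, 18.3% and 17.0% by DESeq2 and 14.4% and 6.94% by limma-voom. Of the white and general adipocyte markers, 4 of 7 were called higher and 0 lower, and the list summed to 1400, 2523 and 4194 CPM with vehicle and to 9293, 13650 and 16130 CPM with rebamipide. Fabp4, a fatty acid binding protein that capillaries also make, carried most of the sum with rebamipide, at 5052, 9810 and 10950 CPM, against 610.3, 851.9 and 1135 CPM with vehicle. The list was not uniform, since Cfd, Lep and Retn had log2 changes of 0.34 ± 0.61, -0.53 ± 0.54 and -0.23 ± 0.51 that did not pass. Of 8 brown adipocyte markers, edgeR called 5 higher and 0 lower, while DESeq2, and an unadjusted p-value under 0.05, gave 6 higher and 1 lower, and limma-voom 4 and 0. Of 4 keratinocyte, 5 fibroblast and 5 proliferation genes, 0 were called by edgeR and limma-voom, with medians of -2.33, -1.23 and -2.56. At an unadjusted p-value under 0.05, and by DESeq2, 0, 2 and 3 of them were lower. Of 6 muscle genes edgeR and DESeq2 called 1 higher, by edgeR Myh7 of slow fibres, and limma-voom called 0. That edgeR call was lost in 4 of the 6 fits with 1 library left out, those without vehicle replicate 1, 2 or 3 or rebamipide replicate 2. The part of these cells in the endothelial differences was not tested. The counts of the lists moved with single libraries as those of the members did, while the log2 fold changes of the leading capillary markers ran from 2.32 to 3.45 for Gpihbp1, from 2.17 to 3.15 for Cd300lg and from 2.94 to 4.50 for Car4 over 28 alternatives. Without vehicle replicate 2, and without rebamipide replicate 2, edgeR called 0 genes of any list, brown adipocyte markers included. The capillary markers called higher numbered 4 without vehicle replicate 1, 8 without vehicle replicate 3, 7 without rebamipide replicate 1 and 4 without rebamipide replicate 3. The red cell genes called higher numbered 0 without vehicle replicate 1, 5 without vehicle replicate 3, 4 without rebamipide replicate 1 and 0 without rebamipide replicate 3.

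**Figure D5:**
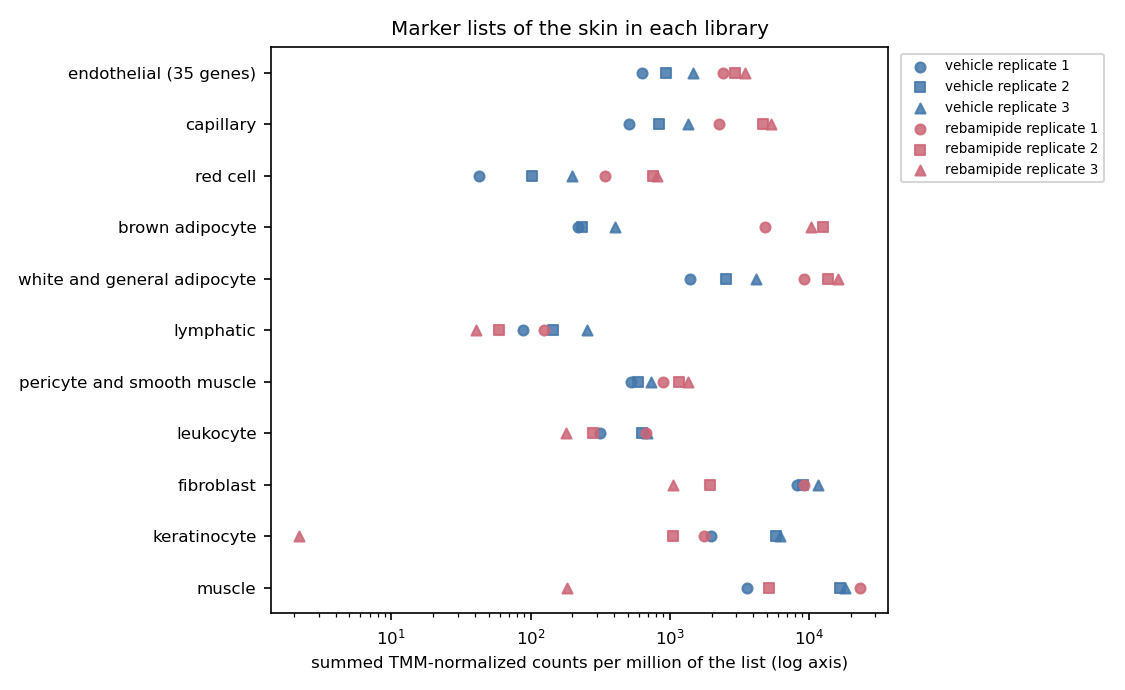
Summed TMM-normalized CPM of each marker list in each library, on a log axis. The endothelial, capillary, red cell, adipocyte, and pericyte and smooth muscle lists are higher in all 3 rebamipide libraries. The keratinocyte, fibroblast and muscle lists spread widely among these libraries, down to 2.17 CPM for keratinocytes in rebamipide replicate 3.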

How the data were processed

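The data are bulk RNA-seq libraries of dorsal skin, 3 from vehicle and 3 from rebamipide mice, 1 mouse each. The authors deposited 1 table of 21959 genes with raw read counts and FPKM, where the deposited FPKM equal counts divided by gene length and total counts. The submitters' processing notes name fastp 0.22.0, HISAT2 2.1.0, HTSeq 0.9.1 and build GRCm39, without their roles. Promoters came from GRCm38.p6 and were matched by symbol only. Strandedness is not given in the sources used here.

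Counts were tested in R 4.3.3 with edgeR 4.0.16 (TMM, filterByExpr, quasi-likelihood test, Benjamini-Hochberg over 14875 genes, threshold 0.05). A second fit scaled libraries by the geometric mean of 5 endothelial reference genes. Alternatives were DESeq2 1.42.0, limma 3.58.1 (voom, and trend on log2(FPKM + 1)), other scalings, no filter or a minimum of 10 counts per library, a block for the replicate number, and each library left out. DESeq2 and voom with a library left out were added after the data were seen. Tests were tested on simulated data. The simulated counts had the same dispersion for every gene and no shift in tissue content, so they do not cover libraries as uneven as these. A count of 0 allows up to 3 counts, 0.0752 to 0.0917 CPM before TMM, for counting error only.

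The members and marker lists were chosen with earlier results of these data known. All members are named, and of each vessel, ligand and Notch list the 2 genes highest in CPM and the 2 with the smallest p-values. The same rule was set for the lists of other cells, but these are given mainly as sums, and Krt14, Gp1bb, Ppbp, Lep, Retn, Elovl3 and Zic1 were named there after their values were seen. Libraries within groups differed by more than counting error (chi-square over its degrees of freedom, 83.1 to 742.3).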

Additional observations from a re-analysis of the deposited data

How the results depend on the processing

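The count of members called higher moved most with the test and with single libraries. It was 25 with DESeq2, and it lay within 1.5 times the main count of 14 with limma-voom (18), FPKM (12), total counts alone (10) and every other scaling and filter. The members' median log2 fold change was 0.66 on log2(FPKM + 1) and 0.75 with total counts alone, and with total counts alone 25.1% of all calls were higher, against 68.4% with TMM. With 1 library left out, edgeR called 0 to 23 members higher and 0 to 2 lower, with medians from 1.08 to 1.75. DESeq2 with 1 library left out called 14 to 30 higher and 0 to 3 lower (medians 1.10 to 1.77, and 22 higher without rebamipide replicate 2), and limma-voom 1 to 26 higher and 0 to 1 lower (medians 1.11 to 1.75, and 8 higher without rebamipide replicate 3). Against the endothelial reference, all members as reference gave 2 lower. With 1 library left out, edgeR called 0 to 2 higher and 0 to 6 lower, DESeq2 2 to 3 higher and 2 to 11 lower, and limma-voom 0 to 2 higher and 3 to 6 lower. For DESeq2 and limma-voom with 1 library left out, the shares of all genes called were not counted. The cause of these shifts was not tested.

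With 1 library left out Vwf ran from -0.77 to 0.23 by edgeR. It changed sign, without a call, to 0.23, 0.22 and 0.16 without vehicle replicate 3 (edgeR, DESeq2 and limma-voom), to 0.08, 0.07 and 0.11 without rebamipide replicate 2 and to 0.01 with DESeq2 without rebamipide replicate 3. Tal1 went to -0.08 with total counts alone and Acta2 to -0.34 both with total counts alone and on FPKM. Of 2042 values of named genes under an alternative, 1604 kept direction and call, 268 lost the call, 160 gained one and 10 changed sign. A replicate block (pairing by number) gave 19 higher, 0 lower, a median of 1.45, and 2 higher and 5 lower against the reference. Same-numbered libraries did not deviate together (correlations -0.073, -0.0282 and -0.0392), while those of the other pairs ran from -0.335 to 0.353. So few libraries cannot show whether the numbers pair the mice.

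With 3 mice a group, changes of genes under about 10 CPM, such as Sele, Selp, Tal1 and Rasip1, rest on the spread of few libraries.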
